A study of Mus musculus with 8 samples.

Results

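The genes described here are interferon-stimulated genes and the receptors, kinases and transcription factors that control them, in bEnd3 cells with and without corticosterone. They were taken by symbol from a list of 43 genes, of which 42 were matched among the 35852 genes of the count table, and Isg15 is not analysed here. Of the 42 genes, 40 passed the filter on low counts. Oas2 and Mx1 did not and are outside the counts below. Without the filter both were tested over all 8 libraries and not called (edgeR adjusted p = 0.394 and 0.414; DESeq2 adjusted p = 0.447 and 0.477).

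Interferons are cytokines that cells release when they sense a virus. Type I interferon (alpha and beta) binds the receptor made of IFNAR1 and IFNAR2, and interferon-gamma binds IFNGR1 and IFNGR2. Both act through JAK kinases on STAT proteins: type I interferon leads to a complex with STAT2 and IRF9 that binds the interferon-stimulated response element (ISRE), and interferon-gamma acts through the gamma-activated site (GAS). The genes behind these elements encode RNA sensors, antiviral proteins and further regulators, and many are expressed at a low level without an infection. In brain endothelium, type I interferon is known for tightening the barrier, and glucocorticoids are known for dampening interferon responses in several cell types.

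bEnd3 is an immortalised mouse brain endothelial line, grown here in medium with fetal calf serum. RNA was sequenced from 4 libraries of cells given corticosterone, the main glucocorticoid of mice, at 5 µM for 24 h, and from 4 libraries of cells in culture medium. The comparison asks how corticosterone changes the transcriptome of these cells. One protocol text that names corticosterone is attached to all 8 libraries, so groups follow the treatment stated for each library. No vehicle is named for the medium, no interferon or virus was given, and bEnd3 is a single line. Replicates are not stated to be separate cultures, so p-values measure the spread between these libraries.

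Total estimated counts ranged from 27.7 to 33.2 M (M, 1e+06 counts) in the corticosterone libraries and from 19.7 to 46.2 M in medium, with the lowest total in medium replicate 3. Fkbp5, a classical target of the glucocorticoid receptor, was 6.83-fold higher with corticosterone, and all 8 listed targets of the receptor rose. All 12 endothelial markers were expressed, with a summed level of 9401 to 9773 CPM with corticosterone and 8607.3 to 9107.1 in medium. CPM are counts per 1e+06 after TMM scaling. Leukocyte and macrophage markers, listed because such cells carry strong interferon programs, summed to 17.1 to 18.8 CPM with corticosterone and 17.4 to 19.4 in medium. Of these 11 genes, Cd68 alone passed the filter and Tyrobp had 0 counts. Pericyte markers summed to 3.99 to 6.01 and 5.59 to 6.76 CPM, and neural markers to 1.18 to 1.77 and 1.21 to 1.78 CPM, with Aqp4 and Olig2 at 0. The 6 fibroblast markers summed to 5.74 to 6.69 CPM with corticosterone and 19.9 to 22 in medium, a fall carried mainly by Pdgfra, whose part in the results below was not tested.

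Some libraries stood apart. In corticosterone replicates 1 and 2 the effective length of every one of the 61001 transcripts of 1000 nt or more was the transcript length plus 1, which held for 0% of them in the other 6 libraries. Gene counts of these 2 libraries differed far beyond sampling noise from each other (chi-square per degree of freedom of 107) and from corticosterone replicates 3 and 4 (47.4 to 73), against 2.18 to 4.73 for all other pairs of replicates. Every test was therefore repeated in the 6 libraries without them. Medium replicate 3 was the lowest of the 4 medium libraries in 33 of the 40 interferon genes tested (82.5%), against 31.1% of all 13272 genes tested, and medium replicate 1 was the highest in 24 (60.0%, against 23.7%). The median deviation of the 40 genes from the medium mean was -0.133 in replicate 3 and 0.08 in replicate 1 on the log2 scale, while the medians over all genes were -0.003 and -0.005. Among the 34 members that are not receptors or kinases, replicate 3 was lowest in 30. In a separate list of 52 other antiviral genes it was lowest in 22 (42.3%). Results are therefore also given without medium replicate 3.

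**Figure D1:**
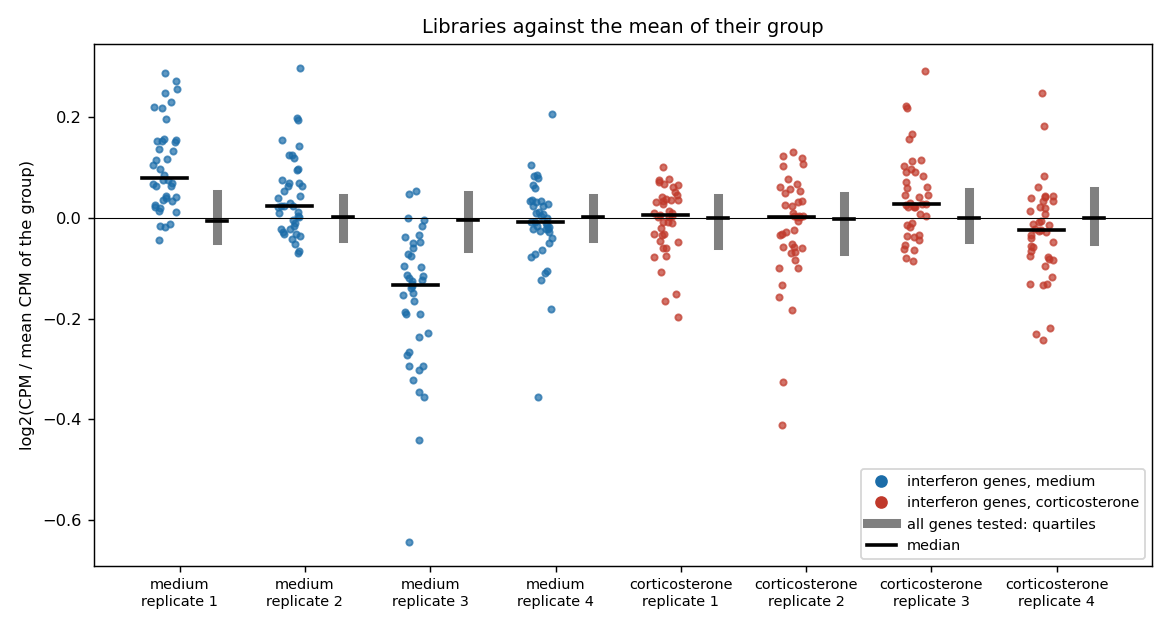
Deviation of each library from the mean of its group, as log2(CPM / mean CPM of the group), for the 40 interferon genes tested (points; black bar, median), beside the quartiles and median of all 13272 genes (grey bar). In medium replicate 3 most points lie below 0, with a median of -0.133, while the 4 corticosterone libraries stay nearer 0.

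Interferon genes changed in both directions and by little. Of the 40 tested, 14 (35.0%) changed at an adjusted p under 0.05 with edgeR, where 40.1% of all genes did, so the share was near the background. Of the 14, 7 rose (19.5% of all genes rose) and 7 fell (20.6% of all genes fell). The genes that rose were Ifngr1, Ifngr2, Tyk2, Ifit2, Xaf1, Ifi27 and Ifi35, and those that fell were Ifnar2, Irf7, Ifit3, Bst2, Ifi44, Gbp3 and Gbp7. Corticosterone and medium libraries did not overlap in 12 members, against 39.9% of all genes. The median log2 fold change was -0.065 for the members and -0.005 for all genes, and the median absolute log2 fold change was 0.14 for both. No member changed 2-fold or more, while 498 of all genes (3.75%) did.

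In the 6 libraries, 12 of 41 members changed, 5 higher and 7 lower, where 36.4% of all genes changed, 18.4% higher and 18.0% lower. The 12 genes were all called in the 8-library fit too, with which they share libraries; Xaf1 (adjusted p = 0.0872) and Ifi35 (adjusted p = 0.111) lost their calls. Without medium replicate 3, each of the 14 kept its call and 7 more members fell, giving 7 higher and 14 lower. Of all 13464 genes tested there, 2432 rose and 2555 fell (37.0% changed). This library was singled out because these same members were low in it. Leaving it out raises their medium mean and favours falls, so calls gained that way are no independent support. Without medium replicate 1, the highest in most members, 13 changed, 7 higher and 6 lower, where 4844 of 13417 genes did. For the 26 members that were not called, the 95% intervals of the log2 fold change lay between -0.63 and 0.41, so a 2-fold change lay outside the interval of each of the 26. In 15 of them the whole interval was within 0.25 of 0.

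On log2(TPM + 1) in the same 6 libraries, limma-trend called Ifngr1, Ifngr2, Ifit2, Ifit3 and Gbp3, while the other 9 of the 14 genes kept their sign and were not called. The adjusted p was 0.116 for Ifnar2, 0.251 for Tyk2, 0.209 for Irf7, 0.0725 for Bst2, 0.104 for Xaf1, 0.0529 for Ifi44, 0.234 for Ifi27, 0.676 for Ifi35 and 0.156 for Gbp7. With no filter on low values, Ifit3 (adjusted p = 0.0832) and Gbp3 (adjusted p = 0.0848) were not called either.

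**Figure D2:**
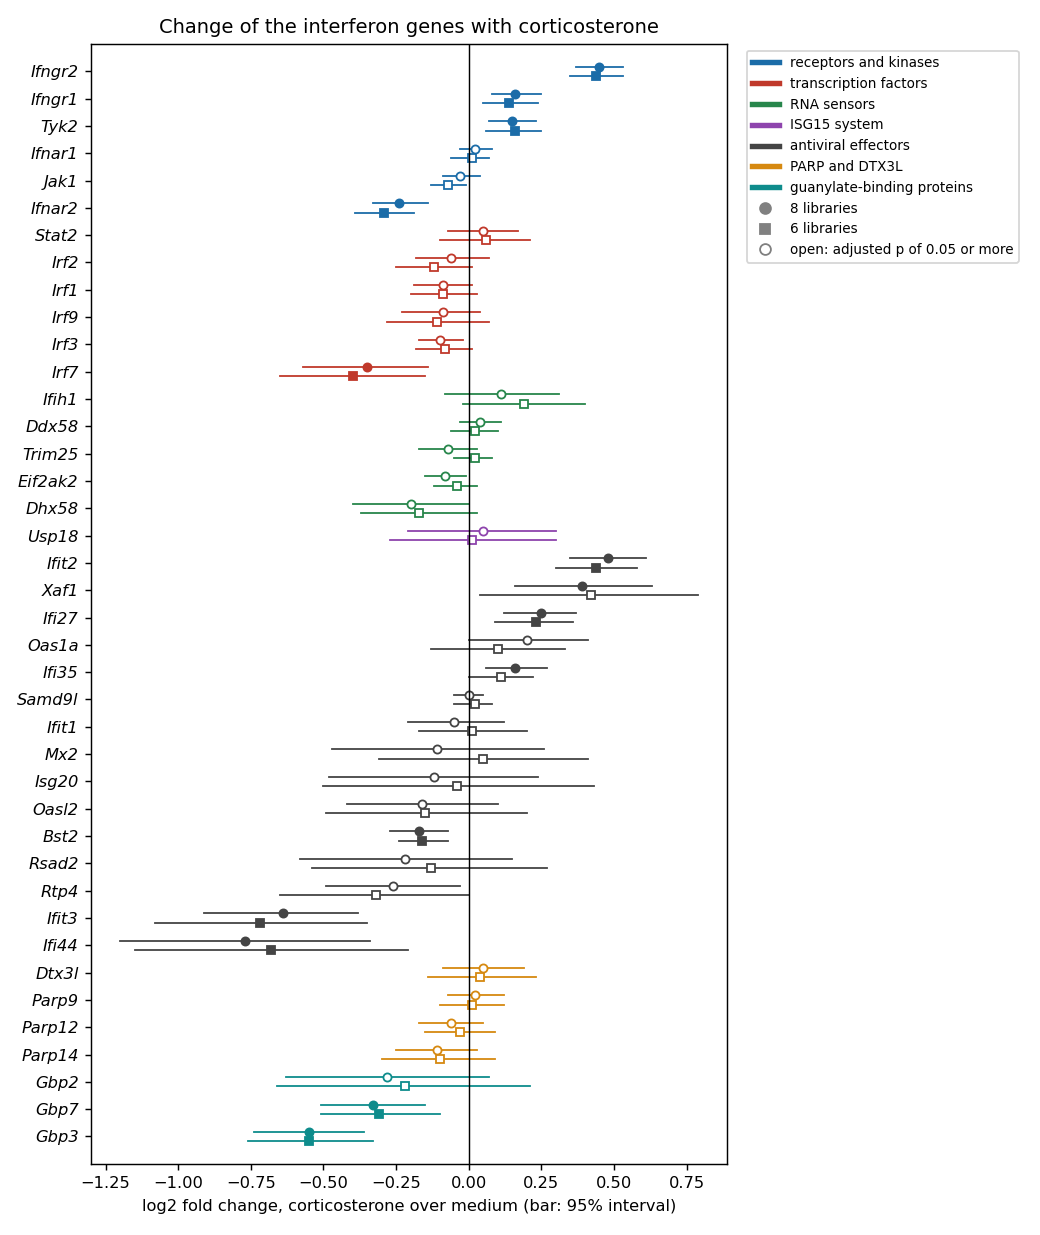
Log2 fold change of corticosterone over medium with its 95% interval for the 40 interferon genes tested, by role, in all 8 libraries (circles) and in the 6 libraries without corticosterone replicates 1 and 2 (squares). Filled symbols have an adjusted p under 0.05. Values run from -0.77 for Ifi44 to 0.48 for Ifit2, and falls and rises stand side by side among receptors and effectors.

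Levels in medium were compared between genes as TPM, transcripts per 1e+06, which take length into account. Gene TPM is a sum over transcripts, so few counts on a short transcript can add much to it. In medium replicate 2, Rsad2 lay at 2.36 TPM, while Rsad2-201, with 94.9% of its counts, lay at 0.947. Bst2 lay at 567.4 TPM there and Bst2-201, with 99.4% of its counts, at 555.5. How far this shapes the order below was not tested. Bst2, encoding tetherin, which holds budding virions on the cell surface, was the most abundant at 543.5 ± 30.4 TPM (SD, n = 4). It was followed by Ifi27 at 119.1 ± 13.1, Jak1 at 95.6 ± 0.241, Xaf1 at 80.9 ± 12.8 and Ddx58 at 72.4 ± 4.59 TPM. At the low end stood Ifi44 at 2.27 ± 0.511, Rsad2 at 1.51 ± 0.588, Mx1 at 0.204 ± 0.110 and Oas2 at 0.0687 ± 0.0472 TPM. Of the 41 pairs of neighbours in this order, 8 had no overlap between their 4 libraries: Bst2 above Ifi27, Ifi27 above Jak1, Jak1 above Xaf1, Ddx58 above Irf3, Eif2ak2 above Samd9l, Usp18 above Gbp2, Rsad2 above Mx1 and Mx1 above Oas2. The ranges of the other neighbours overlapped. Both genes of a pair were measured in the same libraries, so overlapping ranges do not show that their order is unresolved. Summed over transcripts, Stat2, for example, lay above Irf9 in each library. In medium replicates 1 to 4 they measured 28.3, 23.9, 20.7 and 23.0 against 24.2, 19.9, 18.6 and 20.3 TPM. Their main transcripts did not keep that order in each library. Stat2-201, with 91.3 to 94.5% of the gene's counts, measured 13.6, 12.1, 11.5 and 12.3 TPM. Irf9-202, with 59.7 to 66.7%, measured 15.2, 13.0, 12.6 and 12.2 TPM. Receptors, kinases and most transcription factors lay between 15.3 TPM (Tyk2) and 95.6 TPM (Jak1), with Irf7 lower at 8.66 ± 1.23 TPM. Among the classical antiviral effectors, Ifit1, Ifit2, Ifit3 and Oas1a lay between 5.78 and 10.9 TPM. They were below the sensors Ddx58 and Eif2ak2, near Dhx58 (11.8 ± 1.56 TPM) and above the sensor Ifih1 (2.71 ± 0.339 TPM).

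**Figure D3:**
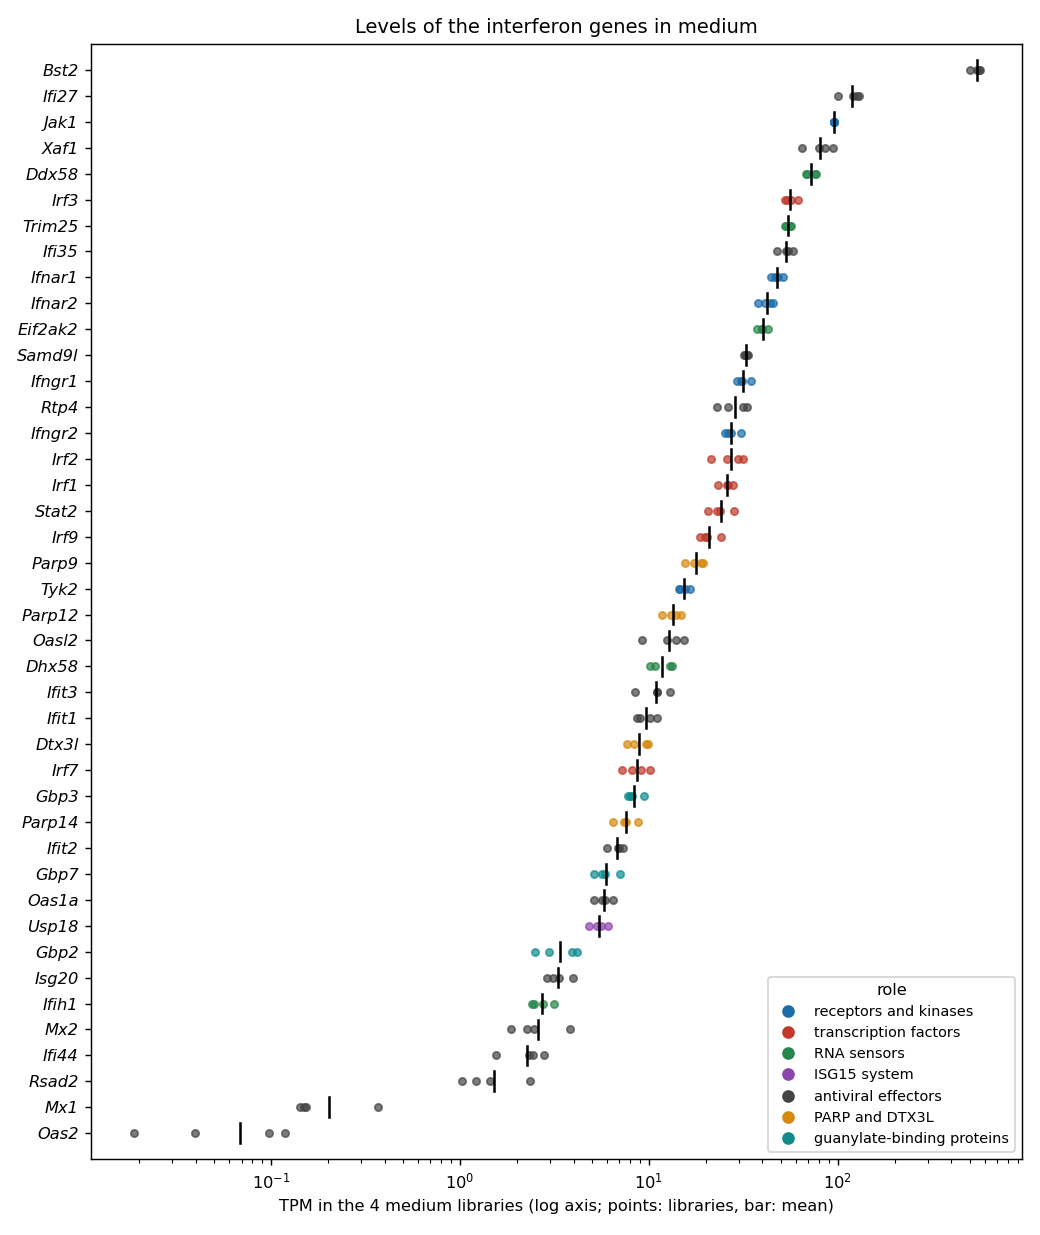
TPM, summed over transcripts, of the 42 interferon genes in the 4 medium libraries on a log axis, in order of the mean (black bar), coloured by role. Bst2 stands highest at 543.5 TPM and Oas2 lowest at 0.0687 TPM, with most neighbours overlapping.

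Apart from Ifne, transcripts of the interferons themselves were at or near 0. Of 10 interferon genes examined, 7 (Ifna1, Ifna4, Ifna5, Ifng, Ifnl2, Ifnl3 and Ifnk) had 0 counts in all 8 libraries, where a floor of 3 counts over a group corresponds to 0.0248 CPM with corticosterone and 0.0247 CPM in medium. Ifnb1 had 2 counts in each group and Ifna2 had 0 with corticosterone and 1 in medium. Ifne, an interferon best known from the female reproductive tract, had 480 counts with corticosterone and 490 in medium and was not called (log2 fold change 0.01, edgeR adjusted p = 0.966). A floor speaks to counting error only, because PCR copies of one molecule cannot be recognised without molecular identifiers.

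The receptors for interferon-gamma rose, while one chain of the type I receptor fell. Ifngr2 (ENSMUSG00000022965.8), the signalling chain of the interferon-gamma receptor, measured 65.6, 63.1, 62.6 and 64.9 CPM in corticosterone replicates 1 to 4 and 47.3, 45.8, 44.6 and 49.7 CPM in medium replicates 1 to 4. All corticosterone libraries lay above all medium libraries, with a log2 fold change of 0.45 ± 0.036 (SE; edgeR adjusted p = 6.43e-07), a 1.37-fold rise. Ifngr1 (ENSMUSG00000020009.13), the ligand-binding chain, measured 43.5, 44.4, 41.1 and 44.7 CPM with corticosterone and 40.5, 37.7, 38.3 and 38.5 CPM in medium. The groups again did not overlap, and the log2 fold change was 0.16 ± 0.038 on counts (edgeR adjusted p = 0.0039). On TPM in the 6 libraries, Ifngr1 lay at 47 and 44 with corticosterone and at 34.8, 29.3, 30.9 and 31.3 in medium, and the log2 fold change on log2(TPM + 1) was 0.52, above that of Ifngr2 (0.40). The order of the changes of the 2 chains thus differed between counts and TPM. The transcript Ifngr1-201 held 97.5% and 95.2% of the gene's counts in corticosterone replicates 3 and 4. It measured 29.9 and 31.4 TPM there and 30.8, 28.3, 24.8 and 26.5 TPM in medium, so the groups overlapped. The rest of the gene's TPM in these 2 corticosterone libraries lay on transcripts that share the few remaining counts. The larger rise on TPM is therefore not one of the main transcript, and this was not tested.

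Ifnar2 (ENSMUSG00000022971.18), the high-affinity chain of the type I receptor, measured 35.0, 36.1, 32.3 and 33.4 CPM with corticosterone and 41.5, 38.5, 41.6 and 39.5 CPM in medium. Every corticosterone library was below every medium library, a fall by 0.24 ± 0.044 on the log2 scale (edgeR adjusted p = 0.000909), and it fell by 0.29 in counts of the 6 libraries but was not called on their TPM (adjusted p = 0.113 to 0.218). Ifnar1, the other chain, lay at 123.4 ± 2.29 CPM with corticosterone and 121.3 ± 2.51 in medium (SD, n = 4), with a 95% interval of the log2 fold change from -0.03 to 0.08. Tyk2 (ENSMUSG00000032175.11), the kinase bound to IFNAR1, measured 50.5, 51.3, 52.3 and 50.8 CPM with corticosterone and 48.5, 47, 43.1 and 45.6 CPM in medium, with no overlap. Its log2 fold change was 0.15 ± 0.037 (edgeR adjusted p = 0.00585). Jak1, the kinase shared by both receptors, lay at 304.7 ± 12.3 and 310.3 ± 2.63 CPM and was not called, with an interval of -0.09 to 0.04.

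Ifnar2, Ifnar1 and Ifngr2 lie near each other on one strand of chromosome 16 (GRCm38, GENCODE M21). Ifnar2 spans chr16:91372783-91405589 and fell. Between it and Ifnar1 lies Il10rb, a receptor chain of interleukin-10 and interferon-lambda, at chr16:91406164-91425834, which fell by 0.18 ± 0.046 on the log2 scale (edgeR adjusted p = 0.0078). Both share sequence with the predicted gene Gm21970, and the 3 summed fell by 0.19 (edgeR adjusted p = 8.3e-06). Ifnar1 spans chr16:91485238-91507441 and was not called, and Ifngr2 spans chr16:91547072-91565623 and rose.

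Estimated counts are also split between annotated transcripts, and here corticosterone replicates 1 and 2 could not be used. The share of a gene's counts placed on other transcripts differed by a median of 14.0% between these 2 libraries over 33 members with several transcripts. It differed by 2.59% between corticosterone replicates 3 and 4, and by at most 5.22% (median) within medium. For Tyk2, 67.2% of the counts of corticosterone replicate 1 were placed on Tyk2-201, against 0.0 to 6.5% in the other 7 libraries, and for Irf3, 62.3% were placed on Irf3-202, against 0.0 to 2.3%. Gene counts are sums over this split, and no transcript was tested across all 8 libraries. In the other 6, Ifnar2-201 (3047 nt) measured 8.0 and 8.05 TPM with corticosterone and 12.2, 11.8, 11.7 and 11.1 TPM in medium. Ifnar2-203 (1099 nt) measured 25.1 and 27.8 TPM with corticosterone and 29.9, 24.3, 28.5 and 28.2 TPM in medium. The longer transcript was thus lower in both corticosterone libraries, while the shorter one overlapped, a difference that was not tested.

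**Figure D4:**
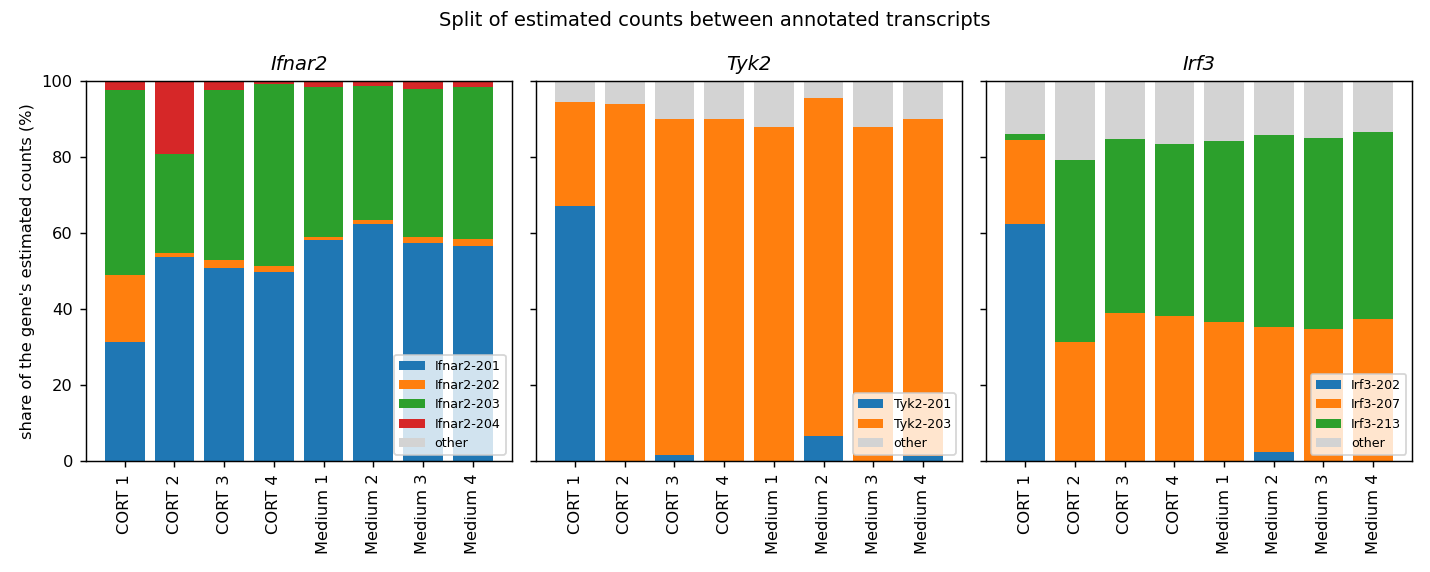
Share of each gene's estimated counts (%) on its main annotated transcripts in the 8 libraries, for Ifnar2, Tyk2 and Irf3 (grey, other transcripts). Corticosterone replicate 1 (CORT 1) places 67.2% of Tyk2 and 62.3% of Irf3 on transcripts that hold at most 6.5% in the other libraries.

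Of the 6 transcription factors 1 fell and none rose. Irf7 (ENSMUSG00000025498.15), which amplifies type I interferon production and is itself interferon-inducible, measured 7.47, 8.24, 7.89 and 6.97 CPM with corticosterone and 11.1, 10.4, 8.04 and 9.3 CPM in medium. Corticosterone replicate 2 lay above medium replicate 3, so the groups overlapped. The fall was 0.35 ± 0.099 on the log2 scale (edgeR adjusted p = 0.0129), and it was not called without medium replicate 1 (adjusted p = 0.0536). Irf3, which starts interferon production after a virus is sensed, measured 39.9, 38.9, 41.0 and 39.5 CPM with corticosterone and 44.4, 41.0, 41.2 and 43.4 CPM in medium. The groups did not overlap before rounding, but corticosterone replicate 3 and medium replicate 2 both round to 41.0 CPM. The log2 fold change of -0.10 missed the threshold (edgeR adjusted p = 0.0558) but passed it without medium replicate 3 (adjusted p = 0.048). Irf1, induced by interferon-gamma, had a log2 fold change of -0.09 (95% interval -0.19 to 0.01) and was called without medium replicate 3 (-0.13, adjusted p = 0.0197). The STAT2 and IRF9 subunits of the type I complex and Irf2, a repressor of IRF1 targets, were not called. Stat2 lay at 41.9 ± 2.4 and 40.4 ± 2.89 CPM (SD, n = 4), Irf9 at 30.7 ± 1.92 and 32.7 ± 2.59 CPM, and Irf2 at 33.1 ± 2.02 and 34.5 ± 2.38 CPM with corticosterone and in medium.

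None of the 5 RNA sensors and their partners was called. Ddx58, encoding RIG-I, a sensor of viral RNA ends, lay at 160.1 ± 4.76 CPM with corticosterone and 155.7 ± 6.71 in medium (interval of the log2 fold change -0.03 to 0.11). Ifih1, encoding MDA5, the sensor of long double-stranded RNA, lay at 8.15 ± 0.548 and 7.54 ± 0.841 CPM. Dhx58, encoding LGP2, a regulator of both, lay at 12.2 ± 1.01 and 13.9 ± 1.74 CPM, and Trim25, a ubiquitin ligase of the RIG-I pathway, at 170.7 ± 11.9 and 179.2 ± 3.32 CPM. Eif2ak2, encoding the kinase PKR that stops translation on double-stranded RNA, lay at 95.8 ± 3.41 and 101.2 ± 2.53 CPM with an edgeR adjusted p of 0.0552. Leaving out 1 library moved 3 of them past the threshold: without medium replicate 3, Dhx58 (-0.27, adjusted p = 0.015) and Eif2ak2 (-0.10, adjusted p = 0.0312), without corticosterone replicate 4, Eif2ak2 (adjusted p = 0.0471), and without corticosterone replicate 3, Trim25 (-0.11, adjusted p = 0.0497). Usp18, the protease that removes ISG15 from proteins and restrains IFNAR2 signalling, lay at 4.92 ± 0.287 and 4.73 ± 0.744 CPM and was not called.

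Among the antiviral effectors, 15 were tested, 4 rose and 3 fell, and members of 1 family moved apart. Ifit2 (ENSMUSG00000045932.12), whose protein binds RNA and limits viral translation, measured 21.0, 23.7, 21.1 and 20.8 CPM with corticosterone and 15, 16.9, 14.5 and 15.5 CPM in medium. All corticosterone libraries were above all medium libraries, with a log2 fold change of 0.48 ± 0.060 (edgeR adjusted p = 3.65e-05). Ifit3 (ENSMUSG00000074896.3), which stabilises the IFIT1 protein in complexes, measured 7.25, 7.94, 7.77 and 6.21 CPM with corticosterone and 13.3, 11.6, 8.94 and 11.6 CPM in medium. Every corticosterone library was lower, a fall by 0.64 ± 0.12 on the log2 scale (edgeR adjusted p = 0.0011). Ifit1, which binds viral RNA lacking host cap marks, measured 15.7, 15.3, 18.1 and 15.8 CPM with corticosterone and 18.6, 17.6, 15.2 and 15.5 CPM in medium, with overlapping groups and an interval of -0.21 to 0.12. The 3 genes lie near each other on one strand of chromosome 19: Ifit2 at chr19:34550694-34576419, Ifit3 at chr19:34583531-34588731 and Ifit1 at chr19:34640871-34650009.

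Ifit3 shares sequence with its near copy Ifit3b, and 38.2% of its 31-mers are found in no other gene. Reads could therefore be divided between the copies in an uncertain way. Ifit3b fell too, by 0.70 on the log2 scale (edgeR adjusted p = 0.000469), and the sum of both copies fell by 0.67 (adjusted p = 8.57e-05). Oas1a, an activator of RNase L with 31.2% unique 31-mers, shares sequence with Oas1g. Its log2 fold change of 0.20 was not called (edgeR adjusted p = 0.110), nor was that of both genes summed (adjusted p = 0.062), and it was called without corticosterone replicate 4 (0.28, adjusted p = 0.0267).

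Bst2 (ENSMUSG00000046718.8), the most abundant member, measured 144.3, 162.9, 149.8 and 164.8 CPM with corticosterone and 174.1, 182.1, 166.6 and 179.1 CPM in medium. The highest corticosterone library lay just below the lowest medium library, and the fall was 0.17 ± 0.045 on the log2 scale (edgeR adjusted p = 0.00964). Ifi44 (ENSMUSG00000028037.13), an interferon-induced antiviral protein of low level here, measured 1.93, 1.48, 2.15 and 1.84 CPM with corticosterone and 3.84, 3.09, 2.01 and 3.62 CPM in medium. Medium replicate 3 fell within the corticosterone range. Its fall by 0.77 ± 0.20 on the log2 scale (edgeR adjusted p = 0.00805) was the largest of any member in size. With a term for corticosterone replicates 1 and 2, neither Bst2 (adjusted p = 0.0698) nor Ifi44 (adjusted p = 0.0527) was called.

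Xaf1 (ENSMUSG00000040483.15), an antagonist of the apoptosis inhibitor XIAP, measured 110.1, 106.3, 119.7 and 106.4 CPM with corticosterone and 93.8, 88.0, 68.7 and 86.3 CPM in medium. Medium replicate 3 was far below the other medium libraries, and the rise was 0.39 ± 0.099 over all 8 libraries (edgeR adjusted p = 0.0183) and 0.31 without that replicate (adjusted p = 0.000589). It was not called in the 6 libraries (adjusted p = 0.0872), nor in all 8 when corticosterone replicates 1 and 2 had a term of their own (adjusted p = 0.0589). Ifi27 (ENSMUSG00000064215.13), a small mitochondrial interferon-induced protein, measured 52.9, 48.4, 48.0 and 51.3 CPM with corticosterone and 42.9, 44.4, 37.1 and 44.6 CPM in medium. The groups did not overlap, and the log2 fold change was 0.25 ± 0.058 (edgeR adjusted p = 0.00552). Ifi35 (ENSMUSG00000010358.13), a partner of the STAT-binding protein NMI, measured 43.7, 44.3, 42.2 and 39.8 CPM with corticosterone and 40.0, 39.1, 34.9 and 37.8 CPM in medium. Corticosterone replicate 4 lay below medium replicate 1, and the rise of 0.16 ± 0.048 (edgeR adjusted p = 0.0164) was 0.11 and not called in the 6 libraries.

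The other 8 effectors tested were not called. Rtp4, an interferon-induced chaperone that binds viral RNA, measured 15.5, 15.6, 15.9 and 12.9 CPM with corticosterone and 19.4, 20.5, 15.3 and 16.5 CPM in medium. Its log2 fold change of -0.26 had an edgeR adjusted p of 0.0678, and without medium replicate 3 it was -0.33 (adjusted p = 0.0206). Oasl2, a relative of the oligoadenylate synthetases, was likewise called without medium replicate 3 (-0.26, adjusted p = 0.0276) and had -0.16 with it. Samd9l, which restricts translation and viral growth, lay at 121.1 CPM in both groups with an interval of -0.05 to 0.05. Rsad2, encoding viperin, and Isg20, an RNA exonuclease, were low at 2.25 ± 0.289 and 2.59 ± 0.502 CPM and at 1.38 ± 0.173 and 1.5 ± 0.0618 CPM. Mx2, of the family of dynamin-like GTPases, lay at 2.7 ± 0.522 and 2.9 ± 0.472 CPM. In every library but corticosterone replicate 2, 84.1 to 94.3% of its counts were placed on Mx2-202, a transcript annotated as a polymorphic pseudogene. Mx1 was at 0.269 ± 0.0659 CPM with corticosterone and 0.394 ± 0.204 in medium, and Oas2 at 0.261 ± 0.123 and 0.145 ± 0.0893 CPM, below what the filter admits.

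None of the 4 genes of the PARP and DTX3L group was called over all 8 libraries. Parp9 and Dtx3l, whose proteins form a complex that modifies STAT signalling, lay at 34.5 ± 0.337 and 33.9 ± 2.08 CPM and at 33.5 ± 0.757 and 32.3 ± 3.42 CPM. The 2 genes overlap at their starts on opposite strands of chromosome 16, and whether the counting used strand is not given in the sources used here. Parp12, which acts on viral RNA, lay at 25.7 ± 0.946 and 26.7 ± 1.65 CPM. Parp14, a macro-domain ADP-ribosyltransferase, lay at 35.8 ± 1.33 and 38.6 ± 3.77 CPM, and was called without medium replicate 3 (-0.17, adjusted p = 0.0211).

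Of the 3 guanylate-binding proteins, GTPases that attack pathogen-containing vacuoles, 2 fell. Gbp3 (ENSMUSG00000028268.14) measured 8.23, 7.72, 7.98 and 8.27 CPM with corticosterone and 12.5, 12.6, 9.55 and 12.5 CPM in medium. The corticosterone libraries lay close together and below all medium libraries, a fall by 0.55 ± 0.087 on the log2 scale (edgeR adjusted p = 0.000246). Gbp7 (ENSMUSG00000040253.15) measured 15.1, 12.9, 15 and 14.5 CPM with corticosterone and 21.0, 17.6, 16.1 and 17.5 CPM in medium. It too had no overlap and fell by 0.33 ± 0.081 (edgeR adjusted p = 0.00614). Gbp2 lay at 3.69 ± 0.374 and 4.46 ± 1.08 CPM and was not called (interval -0.63 to 0.07). The 3 genes lie near each other on chromosome 3, Gbp7 at chr3:142530342-142550149, Gbp3 at chr3:142560026-142573209 and Gbp2 at chr3:142620602-142638008. Gbp7 contains all 31-mers of the predicted gene Gm43802, and 85.3% of its own are unique.

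**Figure D5:**
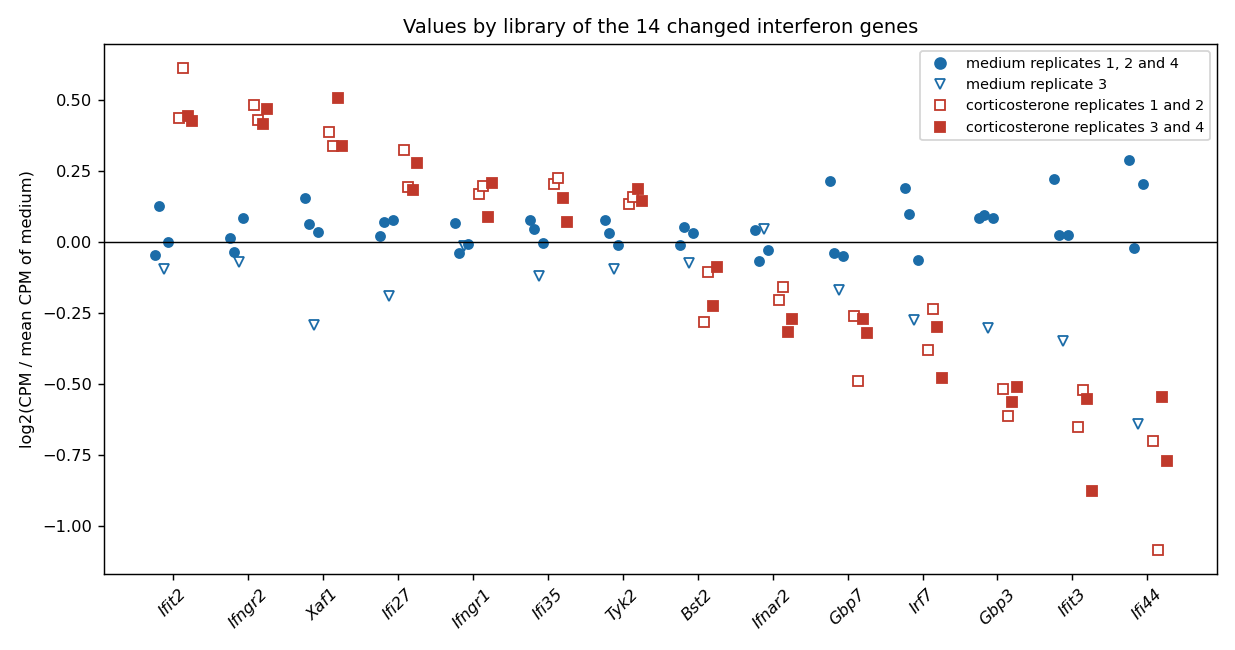
Values by library of the 14 changed interferon genes as log2(CPM / mean CPM of medium), in order of the log2 fold change. Ifit2, Ifngr2 and Xaf1 stand highest; medium replicate 3 (open triangles) lies lowest of the medium libraries in most of these genes and nearest to the corticosterone libraries in the falling genes Gbp3, Ifit3 and Ifi44.

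The ISRE was searched in the promoters, since it is the element through which type I interferon acts on these genes. RefSeq windows (GRCm38.p6) of 250 bases before to 50 after a start were matched for 33 members, 39 windows in all. The ISRE core searched is GAAA, any 2 bases and GAAA, on either strand. It was in 13 of the 39 windows (33.3%), in 13 members, against 3.44% of 32851 windows of all genes. Of the members that fell it was in 4 of 7, of those with a window that rose in 0 of 6, and of those not called in 9 of 20. The members not called that hold it include Ifit1 (2 matches), which lies near Ifit3, and Gbp2 (1 match), which lies near Gbp3. The core is thus not particular to members that fell. The stretches of the 4 members that fell are printed to show the match. That of Ifit2, chosen after its values were seen, is printed as the neighbour of Ifit3 that rose. Both windows of Ifit2 were without a match, and the stretch is from the first one. Starts outside the windows were not searched. Each stretch is written 5′ to 3′ on the gene's strand and ends before the annotated gene. The letters of the match are in capitals (TTTC, any 2 bases and TTTC is the same core on the other strand).
Ifit3, chr19:34583369-34583528, plus strand: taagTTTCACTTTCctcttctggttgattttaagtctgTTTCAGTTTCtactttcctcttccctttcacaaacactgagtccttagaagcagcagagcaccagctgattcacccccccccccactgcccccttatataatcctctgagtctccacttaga
Gbp3, chr3:142559884-142560025, plus strand: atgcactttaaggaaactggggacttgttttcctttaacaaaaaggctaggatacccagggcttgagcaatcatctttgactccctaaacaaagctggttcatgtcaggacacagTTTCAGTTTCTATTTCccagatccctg
Gbp7, chr3:142530176-142530335, plus strand: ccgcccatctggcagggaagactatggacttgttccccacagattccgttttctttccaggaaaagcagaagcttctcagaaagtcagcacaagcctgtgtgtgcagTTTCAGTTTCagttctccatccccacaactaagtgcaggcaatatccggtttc
Bst2, chr8:71537473-71537632, minus strand: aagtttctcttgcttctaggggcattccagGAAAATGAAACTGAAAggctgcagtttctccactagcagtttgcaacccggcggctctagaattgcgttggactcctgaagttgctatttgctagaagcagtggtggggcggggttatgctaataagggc
Ifit2, chr19:34550534-34550693, plus strand: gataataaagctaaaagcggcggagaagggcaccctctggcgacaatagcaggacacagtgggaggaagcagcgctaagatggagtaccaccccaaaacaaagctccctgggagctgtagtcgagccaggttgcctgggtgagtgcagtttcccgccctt

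Ifit3 holds 2 separate matches, which begin 156 and 122 bases before the start. Gbp3 and Bst2 each hold 2 overlapping matches, at 45 and 39 and at 130 and 124 bases, and Gbp7 holds 1 at 53 bases. These distances run to the RefSeq start of the window. The Gbp3 stretch stops short of that start, at the annotated gene, so its matches lie nearer the end of the stretch. The GAS core, TTC, any 3 bases and GAA, was in 11 windows (28.2%) against 8.3% of all windows, in 2 of the 6 members that rose, 3 of the 7 that fell and 6 of the 20 not called, and it overlapped the ISRE core in Bst2. The core of the glucocorticoid response element, AGAACA, any 3 bases and TGTTCT, was in 0 of the 39 windows and 0.00913% of all windows. Its inner letters ACA, any 3 bases and TGT, searched separately and contained in every full core, were in 1 window (the second of Gbp3) against 6.85%. Matches of letters describe these windows and say nothing of binding.

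Genes of the same pathway outside the member list were counted in 7 further lists of 158 genes, of which 122 were tested: 28 rose and 33 fell (50%, against 40.1% of all genes changed, 19.5% higher and 20.6% lower). In the 6 libraries 30 rose and 24 fell of 124 (43.5%, against 36.4% of all genes), and without medium replicate 3 the counts over 122 were 27 and 33, against 37.0% of all genes. The counts of the single lists below stand against the same shares of all genes. Of 11 other signalling genes, 3 rose and 6 fell. Stat3, the main STAT of interleukin-6 signalling, rose 1.17-fold (edgeR adjusted p = 0.000153), while Jak2, the kinase of IFNGR2, fell to 0.795 of medium (adjusted p = 5.61e-06) and Irf2bp1, an IRF2 corepressor, to 0.823. Of 18 negative regulators, 5 rose and 6 fell. Socs3, a feedback inhibitor of JAK-STAT signalling, fell from 14.0 ± 0.961 to 8.14 ± 0.971 CPM (SD, n = 4), to 0.581 of medium (edgeR adjusted p = 1.26e-05), with no overlap between groups. Socs1, the main inhibitor of interferon receptors, was not called at 0.979 of medium (95% interval 0.763 to 1.26). Tsc22d3, the glucocorticoid-induced leucine zipper, rose 3.87-fold, the phosphatase gene Dusp1 rose 1.86-fold, and Trim24 fell to 0.871. Tsc22d3 and Dusp1 also belong to the listed targets of the glucocorticoid receptor that served as a check of the treatment. They are counted here again among the 5 that rose.

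Of 17 genes of sensing and interferon induction, 4 rose and 3 fell. Myd88, the adaptor of Toll-like receptors, rose 1.34-fold and Tlr3, the receptor for double-stranded RNA, 1.23-fold, whereas Cgas, the sensor of cytosolic DNA, fell to 0.770 of medium. Zc3hav1, an antiviral zinc finger protein, fell to 0.939 of medium (edgeR adjusted p = 0.0179), and its call was lost in the 6 libraries and without corticosterone replicate 2 (adjusted p = 0.0531) or medium replicate 2 (adjusted p = 0.0556). Of 52 other antiviral effectors, 12 rose and 12 fell. Ifi27l2a, a neighbour and relative of Ifi27, rose 2.88-fold and Plscr1, a phospholipid scramblase, 1.72-fold. Pml, the organiser of PML nuclear bodies, fell from 182.7 ± 4.02 to 126.7 ± 3.22 CPM (0.693 of medium), and Slfn9, with 76.3% unique 31-mers, fell to 0.680.

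Of 12 further GTPases induced by interferon-gamma, 2 rose and 5 fell. Irgm1, which acts in autophagy of intracellular bacteria, fell to 0.661 of medium (edgeR adjusted p = 2.79e-06) and Tgtp1 to 0.248, though 15.6% of the 31-mers of Tgtp1 are unique and it lay at 1.81 ± 0.453 CPM in medium (SD, n = 4). Irgm2 (1.23-fold, adjusted p = 0.024) and Gbp9 (1.10-fold, adjusted p = 0.028) rose, and neither call held each time 1 library was left out. That of Irgm2 was lost without corticosterone replicate 3 or medium replicates 2, 3 or 4 (adjusted p up to 0.0768), and that of Gbp9 without corticosterone replicates 2, 3 or 4 or medium replicates 3 or 4 (up to 0.0752). Of 11 genes of antigen presentation and chemokines, 2 rose and 1 fell. Psmb10, an immunoproteasome subunit, rose 1.20-fold, and Cxcl10, a chemokine for T cells, fell to 0.370 of medium (edgeR adjusted p = 0.00391) at 0.207 ± 0.0725 against 0.566 ± 0.0483 CPM. Psme2, a proteasome activator with 66.5% unique 31-mers, rose 1.07-fold (adjusted p = 0.0201), a call lost in the 6 libraries (adjusted p = 0.0524) and without corticosterone replicates 1 or 4 or medium replicate 2 (adjusted p up to 0.061).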

How the data were processed

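Poly(A) RNA of 8 bEnd3 libraries was sequenced. The submitters' processing notes name bcl2fastq, kallisto 0.46.1 and the builds mm10 and GRCm38. The authors deposited estimated counts for 35852 genes, not normalized, and per library a table of transcripts with estimated count, effective length and TPM per the file headers. Gene identifiers were matched to GENCODE M21 (GRCm38), all 35852 of them, and TPM was summed per gene. The members and lists were chosen with earlier results of these data known; the named genes are all members and, of each other pathway list, the 2 rises and 2 falls of smallest p, with Socs1, Socs3 and Ifnb1 by name; a gene that the rule also takes is not reported here, and counts include it.

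Estimated counts were rounded and tested in R 4.3.3 with edgeR 4.0.16, after filterByExpr had kept 13272 genes, TMM scaling, robust quasi-likelihood F test, group as the single term, Benjamini-Hochberg adjustment over all genes, threshold 0.05. Alternatives used DESeq2 1.42.0 and limma 3.58.1 among others. Shared sequence was measured as 31-mers of annotated transcripts; promoter windows are RefSeq's. The labels do not state that a replicate number pairs samples, and the main fit paired none.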

Additional observations from a re-analysis of the deposited data

Results flagged for a closer look

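In 80 groups of 4 libraries (40 members, each with corticosterone and in medium), 5 single values stood far from the other 3 of their group by Dixon's criterion (the gap to the nearest value against the range of the group), and chance flags about 1 in 20 groups. Ddx58 measured 153 CPM in corticosterone replicate 4, where the others were 161.8 to 162.9. Rtp4 measured 12.9 CPM in the same library, below 15.5 to 15.9. Ifit1 measured 18.1 CPM in corticosterone replicate 3, above 15.3 to 15.8. Ifit2 measured 23.7 CPM in corticosterone replicate 2, above 20.8 to 21.1. Gbp3 measured 9.55 CPM in medium replicate 3, below 12.5 to 12.6.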

How the results depend on the processing

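Over 19 alternatives, no member changed direction past the threshold; of the values of members, 706 stayed on the same side of it, 17 crossed it to become called and 37 lost the call. DESeq2, RLE size factors and no filter on low counts gave the same 14 changed members as edgeR. Limma-trend on TPM in 6 libraries called fewer: 2830 genes and 5 members (pseudocount 1), 2814 genes and 5 members (pseudocount 0.1), and 2143 genes and 3 members, all 3 higher (no filter), against 5327 genes and 14 members; the cause was not tested. Scaling by library size alone called 17 members, 7 higher and 10 lower, among 5556 genes, 2191 higher and 3365 lower. Summing genes that share sequence also called 7 higher and 10 lower, among 5534 of 11324 units. A term for corticosterone replicates 1 and 2 left 10 (5 higher, 5 lower), among 4485 genes. Leaving out 1 library gave 13 to 21 members and 4753 to 5089 genes. The 21 came without medium replicate 3, which was singled out on these same members. Same-numbered libraries did not deviate together (correlations -0.037, 0.03, -0.053 and -0.051). The large differences of corticosterone replicates 1 and 2 could hide a shared deviation, so these values cannot exclude pairing, and the labels state none. With the replicate block 4913 genes and 14 members changed, with Rtp4 gained (adjusted p = 0.0301) and Xaf1 lost (adjusted p = 0.0897). Depth limits the low members: the filter left out Mx1 and Oas2, and neither was called without it.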
